A study of Mus musculus with 12 samples.

Results

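Hand1 and Hand2 are the 2 genes described here, and they were chosen by name from the 18193 mouse genes that the arrays represent. A probe set belonged to them where the platform annotation gave it exactly 1 gene with that symbol. This held for 5 of 34945 such probe sets, 2 for Hand1 and 3 for Hand2. Each gene is reported by whichever of its probe sets was brightest on average over the 12 arrays, and the other 3 probe sets are given beside it. Both genes passed the filter on dim signals, as did 13698 genes in all.

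The arrays held RNA from mouse embryonic stem cells that had formed embryoid bodies, which are aggregates grown in hanging drops, and were dissociated on day 6. The cells carried a red dsRed reporter specific to the second heart field, a pool of progenitors that builds the outflow tract and right ventricle, as well as a green eGFP reporter driven by a cardiac-specific enhancer. Sorting gave double-positive cells (red and green), red-only cells, green-only cells and double-negative cells, which carried the same reporters but showed neither. Each population had 3 arrays, 1 per experiment (A, B or C), and the labels do not say whether the experiments were separate cultures, so p-values measure the spread between these arrays, which may be partly technical. A sorted population is a mixture defined by reporter colour, so for every gene fewer cells of a type and less RNA per cell cannot be told apart.

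Hand1 and Hand2 encode basic helix-loop-helix transcription factors of the Twist family. They bind DNA at E-boxes, usually as partners of the widely expressed E proteins, and Id proteins limit them by occupying those partners. In the mouse embryo Hand2 is needed for the right ventricle and the second heart field, while Hand1 marks the outer curvature of the left ventricle, the outflow tract, extraembryonic mesoderm and trophoblast giant cells. Both are also used in the branchial arches, and Hand2 in sympathetic neurons and the limb bud.

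In the RefSeq annotation of the GRCm38.p6 mouse assembly, Hand1 lies on chromosome 11 at 57828713 to 57832147 and Hand2 on chromosome 8 at 57320983 to 57324517. The long noncoding RNA Hand2os1 covers 57304261 to 57320859, so its higher coordinate lies next to the start of Hand2. Its direction of transcription was not looked up, and no probe set was listed for it. Where the probe sets lie within the transcripts was not determined here. No upstream sequence was available for Hand1, so only the 250 bases before the annotated start of Hand2 are shown. They lie at chr8:57320733-57320982 on the plus strand, and the sequence is RefSeq's. Capitals mark matches to the motifs named after it.

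Hand2 upstream: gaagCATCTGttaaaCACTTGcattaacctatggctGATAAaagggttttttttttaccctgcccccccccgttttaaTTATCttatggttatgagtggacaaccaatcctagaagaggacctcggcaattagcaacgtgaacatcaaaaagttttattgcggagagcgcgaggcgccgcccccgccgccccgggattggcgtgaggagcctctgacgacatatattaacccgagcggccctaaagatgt

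The first 127 of these bases fall inside Hand2os1 and the other 123 separate it from Hand2. The E-box CANNTG, the site type that Hand factors and their relatives bind, occurred at 2 positions (CATCTG and CACTTG), and 66.2% of 32851 windows of the same length before RefSeq starts held one on either strand. The GATA site GATAA occurred at 2 positions, once on each strand, against a share of 22.6% of windows with at least 1. The NKX2-5 site AAGTG occurred at 1 position, on the minus strand within CACTTG, so it overlaps the E-box there, and 40.7% of windows held it. TATAA was not found in this window, and 22.8% of windows held it. These matches describe the letters only.

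Hand2 was high in every sorted population that showed a reporter and low in cells that showed none. Its intensity, in the linear units of the deposited table, was 175, 255 and 223 in double-positive cells of experiments A, B and C. Red-only cells had 186, 247 and 239, and green-only cells 84.8, 167 and 157, whereas double-negative cells had 14.9, 20.1 and 22.9. No array with a reporter came near the double-negative arrays, and the green-only arrays all lay below every double-positive and every red-only array. The means were 218 ± 40.3 in double-positive cells, 224 ± 33.2 in red-only cells, 136 ± 44.7 in green-only cells and 19.3 ± 4.06 in double-negative cells (SD, n = 3 each). On its own array the Hand2 probe set ranked between the 96.0th and 97.4th percentile in double-positive cells, the 96.3rd and 97.4th in red-only cells, the 91.0th and 96.2nd in green-only cells and the 69.9th and 76.1st in double-negative cells.

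Hand1 varied over a much narrower range and followed another order. It had 59.2, 53.3 and 55.6 units in double-positive cells of experiments A, B and C. Red-only cells had 97.4, 63.9 and 82.3, green-only cells 69.1, 85.9 and 97.2, and double-negative cells 41.5, 45.9 and 64.0. The 6 arrays with exactly 1 reporter were above the highest value elsewhere except red-only cells of experiment B, which were just under double-negative cells of experiment C. Double-positive arrays lay within the range of the double-negative ones. The means were 56.0 ± 2.97 in double-positive cells, 81.2 ± 16.7 in red-only cells, 84.1 ± 14.2 in green-only cells and 50.5 ± 11.9 in double-negative cells (SD, n = 3 each). The array medians ran from 6.29 to 6.73 units, so Hand1 was well above them in cells without reporters too.

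**Figure D1:**
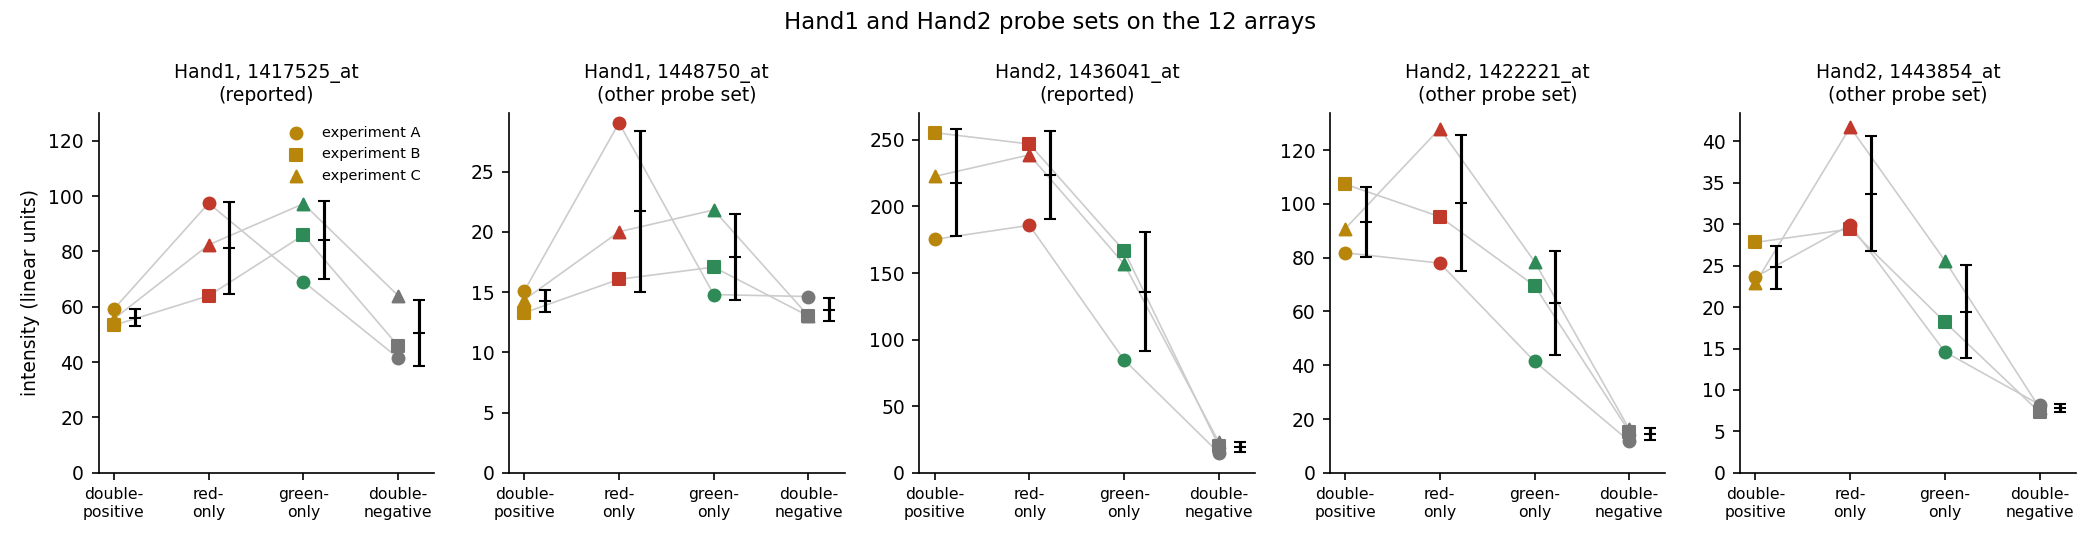
Intensity in linear units (vertical axis, each panel with its own scale from 0) of the 5 Hand1 and Hand2 probe sets in the 4 sorted populations (horizontal axis, double-positive cells at the left and double-negative cells at the right). Markers are single arrays by experiment, grey lines join arrays of one experiment, and black bars give the mean ± SD of 3 arrays; the reported Hand2 probe set is at 14.9 to 22.9 units in double-negative cells and above 80 in all others, while Hand1 is highest in the 2 single-reporter populations.

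Hand2 rose in each reporter-bearing population over double-negative cells in the limma fit across all genes (log2 of intensity plus 4.10, Benjamini-Hochberg adjusted over 13698 genes, threshold 0.05). The log2 fold change was 3.24 ± 0.23 (SE, adjusted p = 3.12e-07) in double-positive cells, 3.29 ± 0.23 (adjusted p = 9.91e-07) in red-only cells and 2.54 ± 0.23 (adjusted p = 6.30e-06) in green-only cells. It was above 0 in all 3 experiments each time, from 3.07 to 3.42 in double-positive cells, 3.17 to 3.37 in red-only cells and 2.23 to 2.82 in green-only cells. Ranked by size, it was the 4th highest of 13698 genes in red-only cells, the 45th in green-only cells and the 54th in double-positive cells.

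Hand1 rose in both single-reporter populations but not detectably in double-positive cells. Its log2 fold change over double-negative cells was 0.65 ± 0.17 in red-only cells (adjusted p = 0.0132) and 0.70 ± 0.17 in green-only cells (adjusted p = 0.00965), and each was above 0 in all 3 experiments. In double-positive cells it was 0.16 ± 0.17 (adjusted p = 0.546), with values of 0.47 and 0.20 in experiments A and B and -0.19 in C. The red-only change rested on few arrays: the adjusted p was 0.0628 without red-only cells of experiment A, 0.0650 and 0.0523 without double-negative cells of experiment A or B, and 0.112 and 0.0550 without all arrays of experiment A or B. Without experiment A it was 0.39 instead of 0.65. The green-only change lost its call without experiment B (0.63, adjusted p = 0.113).

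These counts stand against a large background of change. In double-positive over double-negative cells 13.9% of genes were called higher, among them 1 of the 2 Hand genes, and 17.6% were called lower, among them neither. In red-only over double-negative cells 10.9% were called higher, with both Hand genes, and 12.7% lower. In green-only over double-negative cells 9.33% were called higher, again with both, and 11.4% lower. An F-test over the 4 populations called 32.3% of genes, and it called Hand2 (F = 93.1, adjusted p = 7.37e-07) and Hand1 (F = 8.63, adjusted p = 0.0102). The Hand1 F-test was lost without experiment B (F = 5.93, adjusted p = 0.0858).

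Among the 3 populations with a reporter, all green-only arrays had less signal on the reported Hand2 probe set than any array with red. Its log2 difference was 0.70 ± 0.23 in double-positive over green-only cells (adjusted p = 0.0983) and 0.75 ± 0.23 in red-only over green-only cells (adjusted p = 0.110), neither past the threshold. Both differences were above 0 in every experiment, at 1.01, 0.60 and 0.49 and at 1.10, 0.56 and 0.59 in experiments A, B and C, and the groups did not overlap. With the experiment as a block, which pairs arrays that deviate together, the SE was 0.11 and both were called, with adjusted p = 0.00250 in double-positive cells and 0.00217 in red-only over green-only cells. Without experiment A, whose green-only array was the lowest, they were 0.55 (adjusted p = 0.0161) and 0.57 (adjusted p = 0.0136) and also called. Between double-positive and red-only cells the Hand2 difference was -0.04 ± 0.23 (adjusted p = 0.946), with arrays that overlapped and signs that differed between experiments.

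Hand1 was lower in double-positive cells than in either single-reporter population in every experiment. The log2 difference was -0.49 ± 0.17 in double-positive over red-only cells (adjusted p = 0.0852), at -0.68, -0.25 and -0.53 in experiments A, B and C. It was -0.54 ± 0.17 in double-positive over green-only cells (adjusted p = 0.0864), at -0.21, -0.65 and -0.76. The groups did not overlap in either comparison, and with the experiment as a block both passed narrowly, with adjusted p = 0.0469 over red-only and 0.0453 over green-only cells. Between red-only and green-only cells the difference was -0.05 ± 0.17 (adjusted p = 0.939), positive in experiment A (0.47) and negative in B and C (-0.40 and -0.23).

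The background in these comparisons was smaller. Without the block, 5.94% of genes were called higher and 6.15% lower in double-positive over red-only cells, 2.85% and 2.77% in double-positive over green-only cells, and 1.32% and 1.76% in red-only over green-only cells, in each case with neither Hand gene. With the block, 7.88% were higher and 8.87% lower in double-positive over red-only cells, the lower ones including Hand1. In double-positive over green-only cells 4.4% were higher, including Hand2, and 4.96% lower, including Hand1. In red-only over green-only cells 2.62% were higher, including Hand2, and 3.14% lower.

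The difference that went with the red reporter depended on the green one for both genes. The interaction is the log2 difference between cells with and without red among green-positive cells, minus that among green-negative cells. For Hand2 the red reporter went with a difference of 0.70 among green-positive cells and 3.29 among green-negative cells, which gave an interaction of -2.58 ± 0.32 (adjusted p = 0.000385), the 9th lowest of 13698 genes. For Hand1 the differences had opposite signs, -0.54 among green-positive and 0.65 among green-negative cells, and the interaction was -1.19 ± 0.24 (adjusted p = 0.00676). The interaction was called lower in 5.67% of genes. That of Hand1 missed the threshold without experiment B (-1.24, adjusted p = 0.0837) or C (-1.23, adjusted p = 0.0525).

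**Figure D2:**
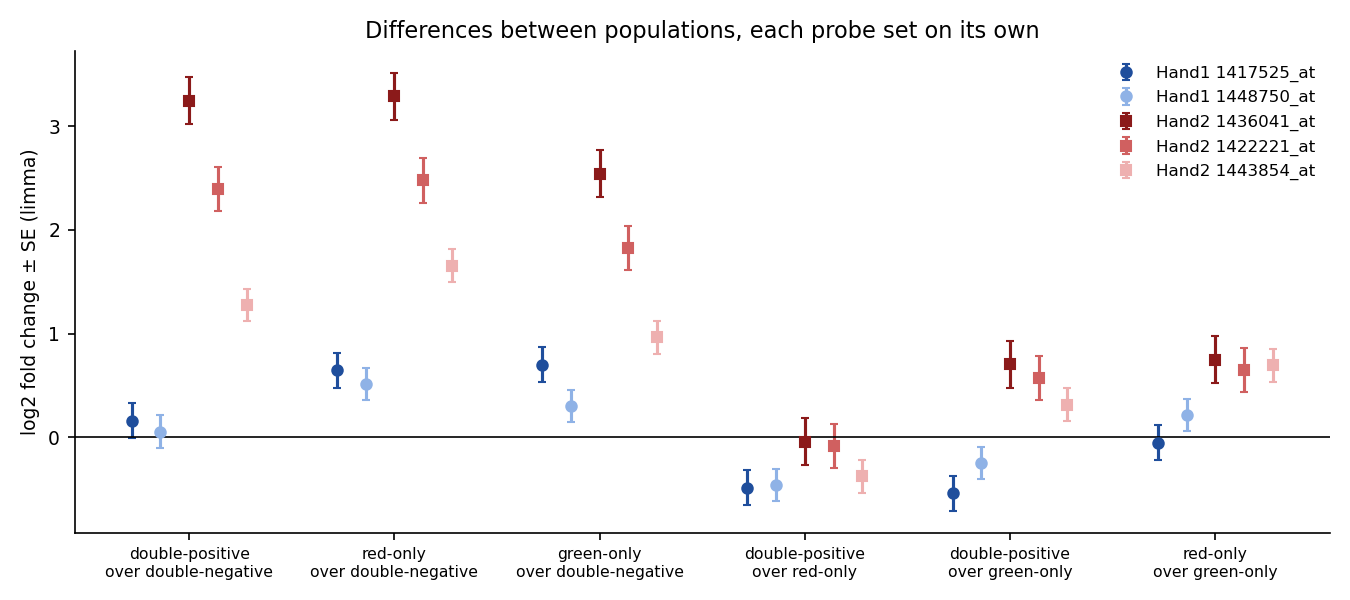
Log2 fold change ± SE from limma (vertical axis) in the 6 comparisons between populations (horizontal axis), with each of the 2 Hand1 and 3 Hand2 probe sets fitted on its own. The 3 Hand2 probe sets lie between 0.96 and 3.29 in all comparisons over double-negative cells, whereas Hand1 stays at or below 0.70 and is below 0 in double-positive over red-only and over green-only cells.

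The other probe sets of Hand2 gave the same order of means, with smaller differences over double-negative cells. The probe set 1422221_at had 93.3 ± 13.0 units in double-positive cells, 100.4 ± 25.4 in red-only cells, 63.2 ± 19.4 in green-only cells and 14.4 ± 2.38 in double-negative cells (SD, n = 3 each). The dimmest one, 1443854_at, had 24.8 ± 2.65, 33.7 ± 6.96, 19.5 ± 5.62 and 7.78 ± 0.46 units in the same order of populations. With every probe set fitted on its own, their log2 fold changes over double-negative cells were 2.39 and 1.28 in double-positive cells, 2.48 and 1.65 in red-only cells and 1.82 and 0.96 in green-only cells, all called (highest adjusted p = 0.000842). Red-only over green-only cells gave 0.65 (adjusted p = 0.158) and 0.69 (adjusted p = 0.0360), so the dimmest probe set alone passed without the block. In double-positive over red-only cells they gave -0.08 (adjusted p = 0.887) and -0.38 (adjusted p = 0.164). The dimmest one was lower in double-positive than in red-only cells in all 3 experiments without overlap, at -0.30, -0.07 and -0.76 in experiments A, B and C, unlike the reported probe set. In double-positive over green-only cells it was above 0 in experiments A and B (0.57 and 0.52) and below in C (-0.14), and those groups overlapped. All values of the 5 probe sets lay above the median of their array.

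The other Hand1 probe set, 1448750_at, kept only part of the pattern. It had 15.1, 13.3 and 14.4 units in double-positive cells of experiments A, B and C, 29.1, 16.1 and 20.0 in red-only cells, 14.8, 17.1 and 21.8 in green-only cells and 14.6, 13.0 and 13.0 in double-negative cells. Red-only cells were again above double-positive and double-negative cells, but green-only cells of experiment A lay among the double-positive arrays and only just above the highest double-negative one. Fitted on its own it was called in red-only over double-negative cells (0.52 ± 0.15, adjusted p = 0.0308) and for the interaction (-0.77 ± 0.22, adjusted p = 0.0477). It was not called in green-only over double-negative cells (0.31 ± 0.15, adjusted p = 0.215) or in the F-test (F = 4.78, adjusted p = 0.0622). Both Hand1 probe sets thus passed in red-only over double-negative cells, and 1 of the 2 in green-only cells.

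The balance between the 2 genes shifted with the reporters. The log2 ratio of Hand2 to Hand1 was taken within each array from the reported probe set of each gene. Only differences of this ratio between populations have meaning, because the probe sets hybridise differently. It was 1.50, 2.18 and 1.92 in double-positive cells of experiments A, B and C, 0.90, 1.88 and 1.49 in red-only cells, 0.28, 0.92 and 0.67 in green-only cells and -1.26, -1.04 and -1.34 in double-negative cells. With these probe sets, double-positive cells had the highest ratio in every experiment, then red-only cells, then green-only cells, and double-negative cells the lowest. The ratio was not taken with the other probe sets. In double-positive over red-only cells the dimmest Hand2 probe set differed by -0.30, -0.07 and -0.76 in experiments A, B and C. The other Hand1 probe set differed by -0.79, -0.21 and -0.38, so in experiment C that Hand2 probe set fell by more. The ratio differed over the 4 populations (F = 45.7, exact permutation p = 0.000390 over all 369600 assignments, for which the smallest possible is 6.49e-05). With assignments kept within experiments, exact p = 0.00174, the smallest they allow.

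Single pairs of populations cannot go below p = 0.1 in this exact two-sided test of 3 arrays against 3, and no pair passed after adjustment over the 6 pairs. The ratio was higher by 3.08 in double-positive cells, by 2.64 in red-only cells and by 1.84 in green-only cells over double-negative cells, each with exact p = 0.1 (adjusted 0.15). It was higher by 1.24 in double-positive over green-only cells (exact p = 0.1, adjusted 0.15), by 0.80 in red-only over green-only cells (exact p = 0.2) and by 0.44 in double-positive over red-only cells (exact p = 0.2). All of these were above 0 in 3 of 3 experiments. Double-positive and red-only arrays overlapped, as did red-only and green-only arrays.

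**Figure D3:**
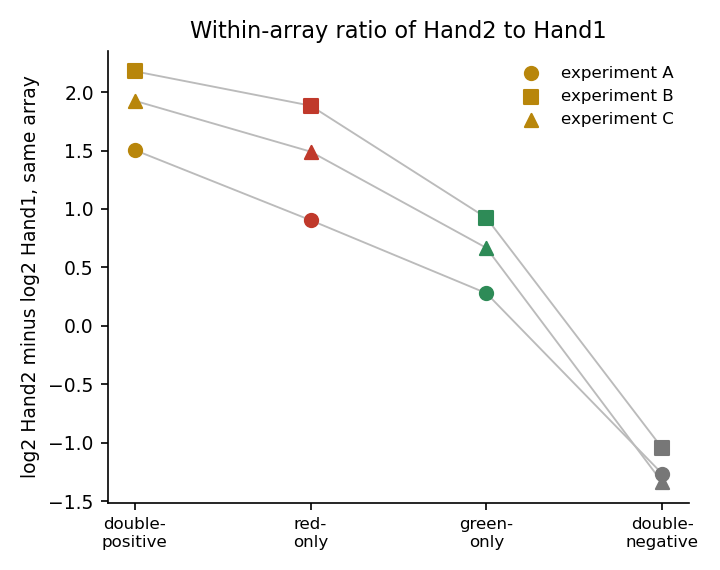
Log2 Hand2 minus log2 Hand1 intensity of the reported probe sets on the same array (vertical axis) in the 4 sorted populations (horizontal axis). There is 1 marker per array, and lines join arrays of one experiment. The lines descend in the same order in all 3 experiments, from 1.50 to 2.18 in double-positive cells to -1.34 to -1.04 in double-negative cells; heights are comparable between populations but do not say which gene is the more abundant.

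The E proteins, the partners with which Hand factors bind DNA, were highest in red-only cells. All 3 (Tcf3, Tcf4 and Tcf12) were on the array and tested, and all 3 fell in double-positive over red-only cells, where 6.15% of all genes were called lower. Their median log2 difference was -0.58 against 0.00 over all genes. Tcf12 averaged 92.8 ± 6.34 units in double-positive cells and 145 ± 5.52 in red-only cells, a difference of -0.62 ± 0.11 (adjusted p = 0.00219). Tcf4 fell by 0.45 (adjusted p = 0.00692, lost without experiment A or B) and Tcf3 by 0.58 (adjusted p = 0.00188) in the same comparison. Over double-negative cells Tcf12 (0.51) and Tcf4 (0.45) rose in red-only cells, none rose in green-only cells, and Tcf3 fell in double-positive cells (-0.40, adjusted p = 0.00673), a call lost without experiment C. Of all genes 10.9% were called higher in red-only cells, 9.33% higher in green-only cells and 17.6% lower in double-positive cells.

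The Id proteins, which sequester E proteins, split by member. Id3 had 128 ± 28.9 units in double-positive cells, 337 ± 33.9 in red-only cells, 239 ± 33.7 in green-only cells and 255 ± 36.2 in double-negative cells. It fell in double-positive cells over double-negative (-0.98 ± 0.15, adjusted p = 0.000297), red-only (-1.38 ± 0.15, adjusted p = 7.17e-05) and green-only cells (-0.89 ± 0.15, adjusted p = 0.00550, lost without experiment A). Id2 instead rose over double-negative cells by 0.53 in double-positive cells, by 0.61 in red-only cells and by 0.47 in green-only cells. The Id2 call in double-positive cells was lost without experiment B. The Id2 call in green-only cells was lost without green-only cells of experiment C, double-negative cells of experiment B or any of the 3 experiments. Id1 was lower in double-positive than in red-only cells (-0.59, adjusted p = 0.0319), a call lost without any 1 of the experiments, and Id4 passed in no comparison without the block. With the block Id4 fell in double-positive (-0.50, adjusted p = 0.0229) and green-only over double-negative cells (-0.58, adjusted p = 0.0144).

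Other basic helix-loop-helix genes of mesoderm that were called included Twist1 and Tcf21, both brightest in red-only cells. Of 15 listed genes 12 passed the filter on dim signals. None of the 12 was called in double-positive over double-negative cells, 4 rose in red-only cells and 1 in green-only over double-negative cells, with medians of -0.01, 0.33 and -0.01 against -0.01, -0.02 and -0.01 over all genes. Of all genes, 13.9%, 10.9% and 9.33% were called higher in these comparisons. With the block the counts were 5 for red-only cells and 2 for green-only cells, and Twist1 was also called in double-positive over double-negative cells (0.50, adjusted p = 0.0155). Twist1, the relative of the Hand genes active in mesenchyme, had 19.3 ± 1.98 units in double-positive cells, 53.2 ± 0.96 in red-only cells, 19.4 ± 6.44 in green-only cells and 12.9 ± 4.67 in double-negative cells. It rose by 1.80 ± 0.21 in red-only over double-negative cells (adjusted p = 5.26e-05) and by 1.32 ± 0.21 in red-only over green-only cells (adjusted p = 0.00387). Tcf21, a factor of the proepicardium and head muscle, rose in the same comparisons by 1.39 ± 0.24 and 1.58 ± 0.24 (adjusted p = 0.00115 and 0.00364). The red-only over green-only calls of both were lost without experiment B. Tal1, the factor of blood and endothelial precursors, was the gene called in green-only cells (0.81 ± 0.25, adjusted p = 0.0334). That count of 1 went to 3 without green-only cells of experiment A or all of that experiment and to 0 without any other single green-only or double-negative array or without experiment B or C.

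Among 20 genes known upstream of Hand1 or Hand2, 15 rose in double-positive cells, 14 in red-only cells and 14 in green-only over double-negative cells, with median log2 changes of 1.25, 1.10 and 0.98. Over all genes the medians were -0.01, -0.02 and -0.01, and 13.9%, 10.9% and 9.33% were called higher. Leaving out arrays or experiments gave 12 to 15, 13 to 14 and 12 to 14, and the block gave 15 in green-only cells. Smad1, a transducer of BMP signals, was the 1 gene of the list that fell over double-negative cells, in double-positive cells (-0.32 ± 0.08, adjusted p = 0.00838, lost without experiment C). The zinc-finger factor Gata6 came closest to Hand2 in shape, at 160 ± 1.42 units in double-positive cells, 159 ± 19.6 in red-only cells, 131 ± 22.4 in green-only cells and 33.9 ± 6.46 in double-negative cells. Its changes over double-negative cells were 2.13 in double-positive cells, 2.11 in red-only cells and 1.83 in green-only cells, each with an SE of 0.14. Mef2c, a cardiac factor whose enhancer integrates Isl1 and Gata input in the second heart field, rose by 4.20, 3.24 and 3.19 in the same order. The ligand Bmp4 rose by 2.46, 1.81 and 1.94. Tbx5 was called in none of these comparisons (0.12, -0.10 and 0.07), and its intensity stayed between 19.1 and 22.9 units on average.

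In double-positive over red-only cells, where Hand2 differed by -0.04, 6 of these upstream genes were higher and 1 was lower (2 and 0 without experiment B, 8 and 3 with the block), while 5.94% of all genes were called higher and 6.15% lower. In double-positive over green-only cells, where Hand2 differed by 0.70, 4 rose (Mef2c, Nkx2-5, Smyd1 and Bmp7) and Smad1 fell (-0.59 ± 0.08, adjusted p = 0.00176). Of all genes 2.85% were called higher and 2.77% lower there. The count of 4 was 5 with the block, 2 without double-positive cells of experiment A or B or without experiment C, and 1 without experiment B. In red-only over green-only cells, where Hand2 differed by 0.75, none of the 20 rose and Smyd1, a muscle methyltransferase known to maintain Hand2 in mouse heart, fell (-0.82 ± 0.20, adjusted p = 0.0395). That call was lost without any of red-only array A or B, green-only array B or C, double-positive array B or C, double-negative array B or C, or experiment B or C. Of all genes 1.32% were called higher and 1.76% lower in red-only over green-only cells. The interaction was called lower in 11 of the 20 (6 without experiment B, 12 with the block) and in 5.67% of all genes, with a median of -0.85 against 0.03 over all genes.

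**Figure D4:**
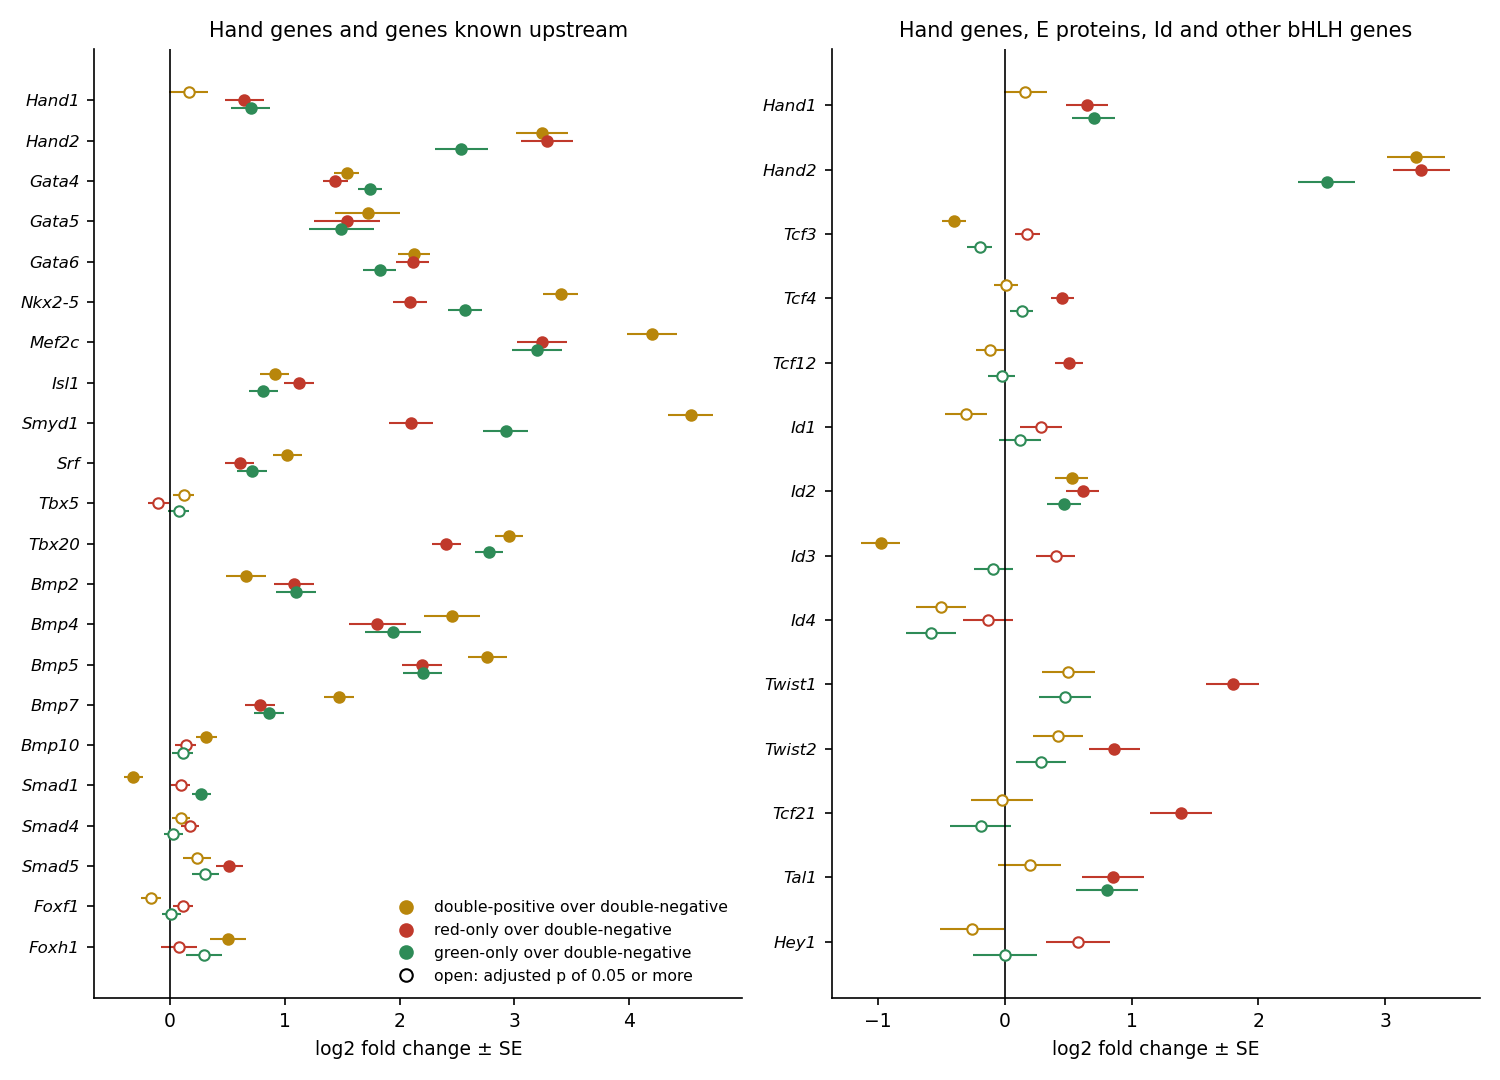
Log2 fold change ± SE from limma over double-negative cells (horizontal axis) in the 3 reporter-bearing populations; filled points had an adjusted p under 0.05 and open points did not. The left panel shows the Hand genes with the 20 genes known upstream of them, and the right panel shows them with E proteins, Id genes and the 5 other bHLH genes called in at least 1 comparison between populations; Hand2 lies near Mef2c and Tbx20, and Hand1 near 0 in double-positive cells.

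Proteins reported to bind Hand factors changed in part. Of 8 such genes, 5 rose in double-positive cells, 4 in red-only cells and 4 in green-only over double-negative cells, against 13.9%, 10.9% and 9.33% of all genes. Their medians were 0.62, 0.23 and 0.58, against -0.01, -0.02 and -0.01 over all genes. The number stayed within 4 to 5, 3 to 4 and 4 when arrays or experiments were left out. The risers included Gata4 (1.54, 1.44 and 1.74), Mef2c and Nkx2-5, which the upstream list also holds. Fhl2, a LIM protein that binds Hand1, rose in double-positive (0.75 ± 0.16, adjusted p = 0.00286) and green-only cells (0.86 ± 0.16, adjusted p = 0.00195) and was at -0.05 in red-only cells. It averaged 60.6 ± 6.54 units in double-positive cells, 33.3 ± 5.26 in red-only cells, 67.1 ± 18.8 in green-only cells and 34.4 ± 3.18 in double-negative cells. The coactivator Ep300, the signalosome subunit Cops5 and the phosphatase subunit Ppp2r5d passed in no comparison.

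Of 10 genes reported downstream of the Hand factors, 9 were on the array and tested, and 4 rose and 1 fell in double-positive over double-negative cells (3 to 5 and 1 with arrays or experiments left out, 5 and 1 with the block). Of all genes 13.9% were called higher and 17.6% lower there, and the list's median was 0.34 against -0.01 over all genes. Over double-negative cells, 2 rose and 1 fell in red-only cells, against 10.9% and 12.7% of all genes. In green-only cells 3 rose and 1 fell, against 9.33% and 11.4%. Leaving out arrays or experiments gave 1 to 2 and 1 in red-only cells and 0 to 4 and 0 to 1 in green-only cells. The risers in double-positive cells were Irx4, Ankrd1 (2.86), Fgf10 (0.67) and Nppb (0.49). Fgf10 also rose in red-only cells (0.34, adjusted p = 0.0481). Irx4, the ventricular homeobox gene, had 19.7 ± 4.44 units in double-positive cells, 6.52 ± 1.17 in red-only cells, 14.8 ± 5.12 in green-only cells and 5.77 ± 0.48 in double-negative cells. Its change over double-negative cells was 1.26 ± 0.18 in double-positive (adjusted p = 0.000120) and 0.90 ± 0.18 in green-only cells (adjusted p = 0.00263, lost without experiment C), and it was 0.10 in red-only cells, where Hand2 was as high as in double-positive cells. Tmsb4x, which encodes thymosin beta-4, rose in red-only (0.71 ± 0.11, adjusted p = 0.000552) and green-only cells (0.45 ± 0.11, adjusted p = 0.0110) and had 0.08 in double-positive cells. Its green-only call was lost without double-negative cells of experiment A or without experiment B or C. Nppa, the atrial natriuretic peptide gene, averaged 4.56 to 7.0 units in the 4 populations and passed in no comparison without the block. With the block it rose in double-positive cells over double-negative (0.34, adjusted p = 0.0198) and over red-only cells (0.34, adjusted p = 0.0396). Shh, which Hand2 activates in the limb bud, fell by 1.45, 1.26 and 1.11 over double-negative cells in the same order of populations, the last of these lost without experiment B or C.

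Heart muscle genes had another order of populations than Hand2. All 8 listed rose in double-positive and green-only cells and 7 in red-only cells over double-negative cells, with medians of 5.54, 4.61 and 3.06 in that order. Of all genes 13.9%, 9.33% and 10.9% were called higher. In red-only over green-only cells all 8 fell (median -1.53, 2 of 8 without experiment B, against 1.76% of all genes), while Hand2 was higher by 0.75. Tnnt2, cardiac troponin T, averaged 1827 ± 336 units in double-positive cells, 302 ± 72.5 in red-only cells, 852 ± 97.1 in green-only cells and 21.6 ± 6.67 in double-negative cells.

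Markers of other cells that use Hand factors were measured beside these results, and their part in them was not tested. Endothelial markers (5 of 5 on the array, all above the median of at least 1 array) were brightest in the single-reporter populations. Their summed intensity ran from 179 to 258 in double-positive cells, 449 to 656 in red-only cells, 259 to 804 in green-only cells and 114 to 208 in double-negative cells. The interaction was called lower for 4 of the 5, among them Kdr, the VEGF receptor (-3.08 ± 0.50, adjusted p = 0.00202), but for 0 without experiment B, 1 without experiment C and all 5 with the block. It was called lower in 5.67% of all genes. Green-only cells of experiment A held the low value of 259 and were also the lowest green-only array for both Hand genes.

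Trophoblast markers (7 of 10 on the array) summed to 52.6 to 61.4 units in double-positive cells, 65.7 to 81.8 in red-only cells, 69.9 to 115 in green-only cells and 98.3 to 113 in double-negative cells. The listed markers Prl3d1, Prl2c2 and Gcm1 had no probe set of their own and were not measured. Elf5 and Tpbpa were below the array median on all 12 arrays. Other members were brighter. Eomes averaged 17.6, 33.2, 38.9 and 52.9 units in the same order of populations, and Krt7 7.25, 7.88, 14.2 and 15.5. Neural crest markers (8 of 9 on the array) summed to 87.2 to 91.6, 95.5 to 134, 88.1 to 106 and 83.7 to 94.7 in the same order of populations. Among them Ednrb averaged 12.6, 37.1, 24.2 and 7.62 units, while Foxd3 went the other way, at 8.67, 8.99, 8.18 and 15.2. Branchial arch markers (5 of 6 on the array) summed to 27.7 to 30.8, 33.3 to 39.4, 29.3 to 36.3 and 31.3 to 35.5, with Dlx2 and Dlx5 below the median on all arrays. Limb bud markers (5 of 5) summed to 69.0 to 106, 56.5 to 79.6, 64.0 to 99.5 and 80.1 to 116, with Hoxd13 below the median throughout. Markers of lateral plate and extraembryonic mesoderm (9 of 9) summed to 236 to 345, 182 to 225, 208 to 226 and 96.8 to 125, a sum to which Bmp4 contributed most, with Hoxb6 and Tdo2 below the median throughout.

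Stem cell and primitive blood markers were brightest in double-negative cells, which were lowest for Hand2, while endoderm markers reached their highest sum in green-only cells. Stem cell markers (Pou5f1, Nanog, Utf1 and Dppa5a) summed to 86.5 to 104 units in double-positive cells, 95.7 to 128 in red-only cells, 102 to 126 in green-only cells and 1291 to 1573 in double-negative cells. Primitive blood markers summed to 40.2 to 93.0, 47.5 to 130, 68.0 to 105 and 1055 to 1942, and endoderm markers to 51.4 to 92.5, 58.8 to 112, 123 to 665 and 103 to 295. The endoderm value of 665 was that of green-only cells of experiment A, the green-only array lowest for both Hand genes. Ttr had 417 units there against 55.9 and 133 in green-only cells of experiments B and C, and Sox17 had 93.6 against 38.6 and 49.6. Whether this bears on the Hand signal was not tested. Actin signal at the 3' end over that at the 5' end, a sign of RNA quality, was 1.40 to 1.55 in double-positive cells, 1.32 to 1.48 in red-only cells, 1.33 to 1.44 in green-only cells and 1.34 to 1.36 in double-negative cells. The green-only array of experiment A deviated most from its group over all genes, with a log2 SD of 0.19, whereas the other 11 had 0.10 to 0.15.

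The genes whose log2 profile over the 12 arrays was most like that of Hand2 were Gata6 (Pearson r = 0.990), the gp130 receptor subunit Il6st (0.988), the adaptor Dok4 (0.987) and the adhesion receptor Adgra2 (0.980). They were followed by Rasa3, Antxr2, Rcsd1, Cdo1, Lix1l and Mef2c (0.967). The most like Hand1 were Sat1, an enzyme of polyamine breakdown (0.933), Ints6l (0.921), the calcium-binding protein gene Calu (0.905) and Cdc42ep1 (0.896), then Ctla2a, Tmem204, Klhl5, Ppp1r18, Ralb and Gimap6 (0.874). These correlations describe 12 arrays in 4 groups that share populations and experiments. Calu averaged 219 ± 16.7 units in double-positive cells, 278 ± 17.2 in red-only cells, 271 ± 9.25 in green-only cells and 199.9 ± 12 in double-negative cells, so it shared the single-reporter maximum of Hand1. Cdo1, cysteine dioxygenase, had 92.6 ± 12.9, 118 ± 19.9, 53.0 ± 7.92 and 9.13 ± 0.95 units in the same order and was called in red-only over green-only cells (1.10 ± 0.13, adjusted p = 0.000812), the comparison that Hand2 passed with the block.

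**Figure D5:**
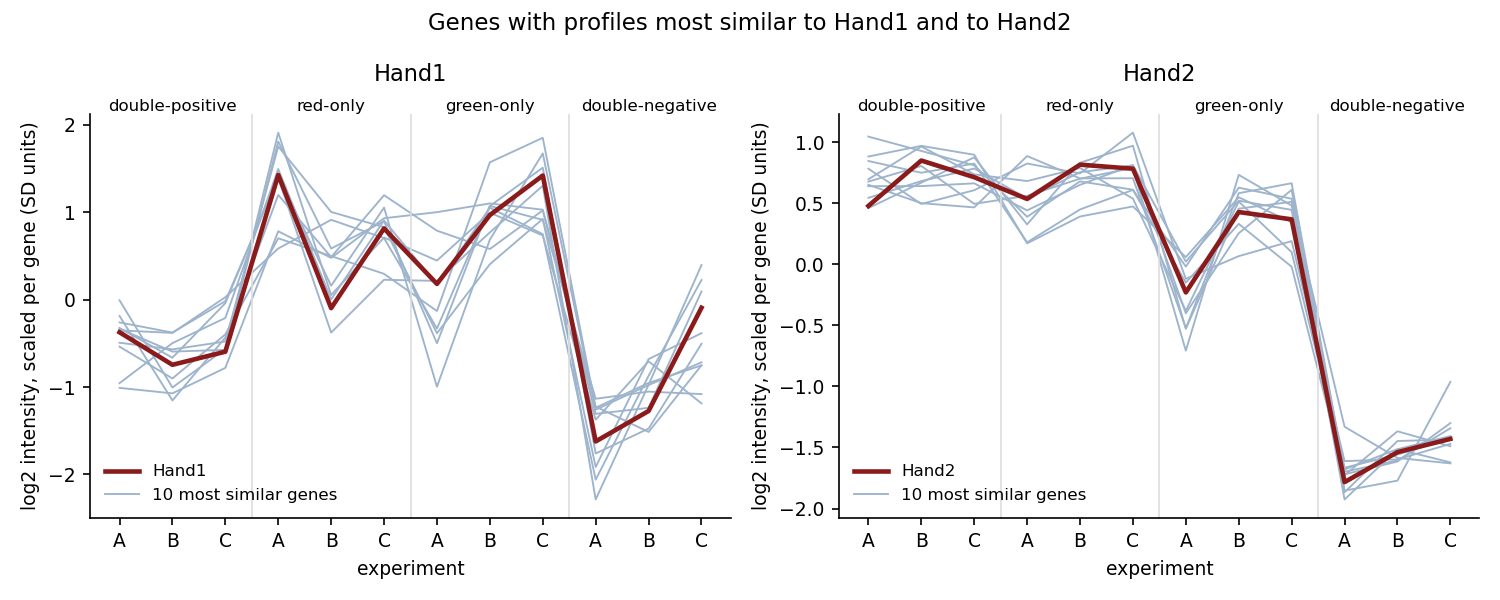
Log2 intensity scaled per gene to mean 0 and SD 1 (vertical axis) on the 12 arrays, ordered by population and experiment (horizontal axis), for Hand1 and Hand2 (thick lines) and the 10 genes most correlated with each (thin lines). The genes most like Hand1 peak in the 2 single-reporter populations. Those most like Hand2 are lowest in double-negative cells, with a dip in green-only cells of experiment A. Some of them, such as Cdo1 and Antxr2, are lower on every green-only array than on any array with red.

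Genes tested nearest to the Hand genes on their chromosomes changed by less than 1 on the log2 scale. Not all of them were adjacent. Counted from the Hand gene, Larp1 and Sap30 were the 6th annotated genes on their sides and Fbxo8 the 7th. Fbxo8 lies at 56551154 to 56593939 and Sap30 at 57482702 to 57487860 on chromosome 8. The annotated genes in between had no tested probe set. The nearest tested genes around Hand1 were Sap30l and 2010001A14Rik on the side of lower coordinates and Larp1 and Cnot8 on the other. Sap30l rose in red-only over double-negative cells (0.34 ± 0.08, adjusted p = 0.00678, lost without experiment A or C), and Larp1, an RNA-binding protein gene, fell in all 3 reporter-bearing populations (-0.34, -0.33 and -0.31), each call lost without experiment B or C and without several single arrays. Around Hand2 they were Fbxo8 and Cep44 on one side and Sap30 and Hmgb2 on the other. Fbxo8, an F-box protein gene, rose in double-positive cells over double-negative (0.86 ± 0.12, adjusted p = 0.000114), red-only (0.61 ± 0.12) and green-only cells (0.51 ± 0.12). The call over red-only cells was lost without experiment B, and that over green-only cells without any 1 of the experiments. It was at 0.25 in red-only over double-negative cells, where Hand2 was at 3.29. Hmgb2, a chromatin protein gene, fell in double-positive and green-only over double-negative cells (-0.73 and -0.55), and Sap30 fell in green-only cells (-0.53). The green-only calls of both were lost without experiment B. With the block Fbxo8 also rose in green-only over double-negative cells (0.35, adjusted p = 0.0152), and Hmgb2 (-0.29, adjusted p = 0.0484) and Sap30 (-0.25, adjusted p = 0.0339) fell in red-only over double-negative cells.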

How the data were processed

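Per the labels, biotin-labelled cRNA made from 5 ug of total RNA was hybridised to 12 single-colour Affymetrix arrays. The deposited values are intensities on a linear scale, 1 per probe set and array, for which the submitters' processing notes name MAS5. Its version and scaling are not given in the sources used here. The number of arrays, 3 per population, limits the precision.

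Groups come from the sample titles, since the description of the sort misprints 1 population. Of 45101 probe sets, 64 controls, 932 annotated to several genes and 9160 without a gene were left out. A platform annotation named the genes, updated through Entrez IDs to RefSeq symbols (204 probe sets had no current entry). The deposited values were not normalized again, and entered as log2(intensity + 4.10), 4.10 being their 25th percentile. Of several probe sets for a gene, the one brightest by mean log2 value was used, and a gene was kept if that mean was above the 40th percentile of probe set means (3.22). The lmFit and eBayes functions of limma 3.58.1, under R 4.3.3, gave each population its own mean over the 12 arrays (8 residual degrees of freedom), with p-values adjusted by Benjamini-Hochberg over 13698 genes, two-sided except the F-test. The procedure was tested on simulated data. The ratio of the Hand genes was tested by exact permutation in Python 3.11.15, and figures were drawn with matplotlib 3.10.9.

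The members and gene lists were chosen with earlier results of these data known. Named are the Hand genes, the 10 genes most correlated with each, any list member and the 2 nearest tested neighbours on each side. The experiment letter pairs the arrays: in all 18 pairs of arrays from one experiment the deviations from their populations correlated, at 0.116 to 0.424 with a mean of 0.264. Beside the results it changes, the fit with the experiment as a block is given. Other alternatives were pseudocounts of 1 and 6.52, quantile normalization, no filter or a 60th percentile one, separate fits of all probe sets, limma's robust option with an intensity trend, only the 6 arrays compared, and each array or experiment left out.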

Additional observations from a re-analysis of the deposited data

Results flagged for a closer look

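For both Hand genes the difference that went with the red reporter depended on the green one, by the test of the interaction in limma. For Hand2 it was 0.70 among green-positive and 3.29 among green-negative cells, an interaction of -2.58 ± 0.32 (adjusted p = 0.000385). For Hand1 it was -0.54 among green-positive and 0.65 among green-negative cells, an interaction of -1.19 ± 0.24 (adjusted p = 0.00676). Both interactions had the same sign with each array or experiment left out, from -2.88 to -2.41 for Hand2 and from -1.36 to -1.05 for Hand1. The Hand1 interaction missed the threshold in limma without experiment B (adjusted p = 0.0837) or C (adjusted p = 0.0525). With the other Hand1 probe set it was -0.77 (adjusted p = 0.0477). Of all genes 5.67% were called lower for the interaction.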

How the results depend on the processing

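The calls of Hand2 over double-negative cells, its interaction and its F-test were kept under all alternatives run, as was the test of the Hand2 to Hand1 ratio over the 4 populations. The ratio was not tested with the other probe sets. With the replicate block, which pairs arrays by experiment, the calls gained were Hand2 in double-positive (0.70) and red-only over green-only cells (0.75) and Hand1 in double-positive over red-only (-0.49) and over green-only cells (-0.54), and no call was lost for either gene. The fit of only the 6 arrays compared also called Hand1 in double-positive over red-only cells (-0.49, adjusted p = 0.0441). With other probe sets, Hand1 in green-only over double-negative cells (0.31) and in the F-test (4.78) lost their calls, Hand1 in red-only over green-only cells turned to 0.21 without a call, and Hand2 in red-only over green-only cells (0.69) was called. Leaving out arrays or experiments gave ranges for Hand1 of 0.39 to 0.82 in red-only and 0.58 to 0.87 in green-only over double-negative cells, -0.64 to -0.35 in double-positive over red-only, -0.71 to -0.43 in double-positive over green-only and -0.32 to 0.12 in red-only over green-only cells. The Hand1 interaction ran from -1.36 to -1.05 and its F from 5.93 to 13.5. For Hand2 they gave -0.17 to 0.10 in double-positive over red-only, 0.40 to 0.88 in double-positive over green-only and 0.45 to 0.92 in red-only over green-only cells. Double-positive over red-only cells was called for Hand1 without red-only cells of experiment B, and double-positive over green-only cells without green-only cells of experiment A or all of experiment A. Without experiment A, Hand2 was called in double-positive (0.55) and red-only over green-only cells (0.57). The arrays whose absence ended Hand1 calls are named with the results. The 2 differences near 0 that changed sign, Hand1 in red-only over green-only and Hand2 in double-positive over red-only cells, were called in no setting. The cause of these changes was not tested. Over the Hand genes and all named genes, the block added 82 calls in 48 genes and ended 0. Of 311 calls of other named genes in 7403 combinations with a setting, 6811 were kept, 592 lost and 0 reversed.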
